A study of Caenorhabditis elegans with 15 samples.

Results

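The genes of the proteasome, the protease complex that degrades ubiquitin-tagged proteins, were followed through immunoprecipitations (IPs) of the RNA-binding protein GLD-1. Members were all genes whose platform symbol starts with pas-, pbs-, rpt- or rpn-, each read from its brightest probe set, by the mean of the 15 arrays, among those assigned to that gene alone. This gave 33 of the 17118 genes measured in this way, 14 of the core particle (pas- and pbs-) and 19 of the regulatory particle (rpt- and rpn-). They held 39 probe sets in all, and 20 of the 33 chosen ones carry a suffix by which the array maker marks sequence found in more than 1 transcript.

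RNA from whole young adult C. elegans was hybridised to 15 Affymetrix arrays in 5 groups of 3. Set 1 consisted of anti-FLAG IPs and anti-MYC IPs of 1 tagged strain, which carries the gld-1 allele q485 and the transgene ozIs2, a fusion of gld-1 with gfp and flag. The labels name no MYC tag in it. Set 2 consisted of anti-FLAG IPs of the same tagged strain and anti-FLAG IPs of N2, the wild type, which has no FLAG tag. The fifth group was input RNA of the tagged strain, not assigned to a set, so every group but N2 carries q485 and ozIs2. Nothing in the labels says that replicates came from separate cultures, so p-values measure the spread between these samples, which may be technical. Strategy 1 compares the FLAG with the MYC IP of set 1, and strategy 2 the tagged with the N2 FLAG IP of set 2. The comparisons share no array.

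The proteasome consists of a barrel-shaped core particle and a regulatory particle that caps it. In the core, rings of alpha subunits (pas genes) gate the entry and rings of beta subunits (pbs genes) hold the proteolytic sites. The regulatory particle has a base, with a ring of ATPases (rpt genes) that unfolds substrates, and a lid (most rpn genes) that removes ubiquitin. Its subunits are made in many tissues, and in C. elegans the complex is needed for embryonic development. GLD-1 is a translational repressor of the germline that binds mRNAs, among them those of oocyte proteins.

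The IP arrays carried less C. elegans signal than the inputs, with 550 to 2170 probe sets at log2 5 or more in the FLAG IPs of set 1, 194 to 820 in the MYC IPs, 1265 to 1784 in the tagged FLAG IPs of set 2, 221 to 435 in the N2 IPs and 7632 to 9352 in the inputs. Mouse brain RNA, 10 µg, had been added to every IP, so these counts do not measure recovery alone. The transcript of gld-1 itself was 5.48 higher on the log2 scale in strategy 1 (limma adjusted p = 0.00231) and 5.55 higher in strategy 2 (adjusted p = 0.000945). The tagged strain carries the gld-1 transgene and N2 does not. In strategy 2, recovery and a difference in gld-1 RNA between the strains therefore cannot be told apart. In input, markers of germline (gld-1 at 9.82), body wall muscle (unc-54 at 10.42), intestine (vit-2 at 11.34), hypodermis (col-19 at 10.76), neurons (snb-1 at 10.06) and sperm (msp-3 at 12.31) were all present. The sperm gene spe-9 stood at 2.43, near the lowest values of the arrays. Apart from it, markers ranged from dpy-7 (hypodermis) at 5.48 to unc-15 (body wall muscle) at 12.76. The other neuron markers were lower than snb-1, with unc-119 at 8.87 and rab-3 at 6.75. In strategy 2 snb-1 and unc-119 were higher (limma adjusted p = 0.00935 and 0.0267), while rab-3 changed by -0.03. Which cells gave the snb-1 signal was not tested.

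Proteasome transcripts were abundant in whole worms. All 33 members exceeded log2 5 on each of the 3 input arrays, with group means of 6.37 to 10.91 and SDs of 0.0566 to 0.496 (n = 3). The IP signal was far lower. Group means ran from 2.70 to 5.30 in the FLAG IP of set 1, from 2.55 to 4.91 in the MYC IP, from 2.72 to 5.38 in the tagged FLAG IP of set 2 and from 2.57 to 4.69 in the N2 IP. The median difference of the members from input was -5.61 in the FLAG IP and -6.16 in the MYC IP of set 1, and -5.72 in the tagged IP and -6.38 in the N2 IP of set 2. By contrast oma-2, which encodes an oocyte maturation factor and is a known GLD-1 target, had a mean of 11.10 in the FLAG IP of set 1, 4.45 in the MYC IP, 12.44 in the tagged FLAG IP of set 2, 4.28 in the N2 IP and 10.79 in input. No test was made between IP and input. Every IP received 10 µg of mouse brain RNA before purification, so these differences do not measure recovery from input alone. In RNA of whole worms, fewer cells of a type and less RNA per cell cannot be told apart.

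**Figure D1:**
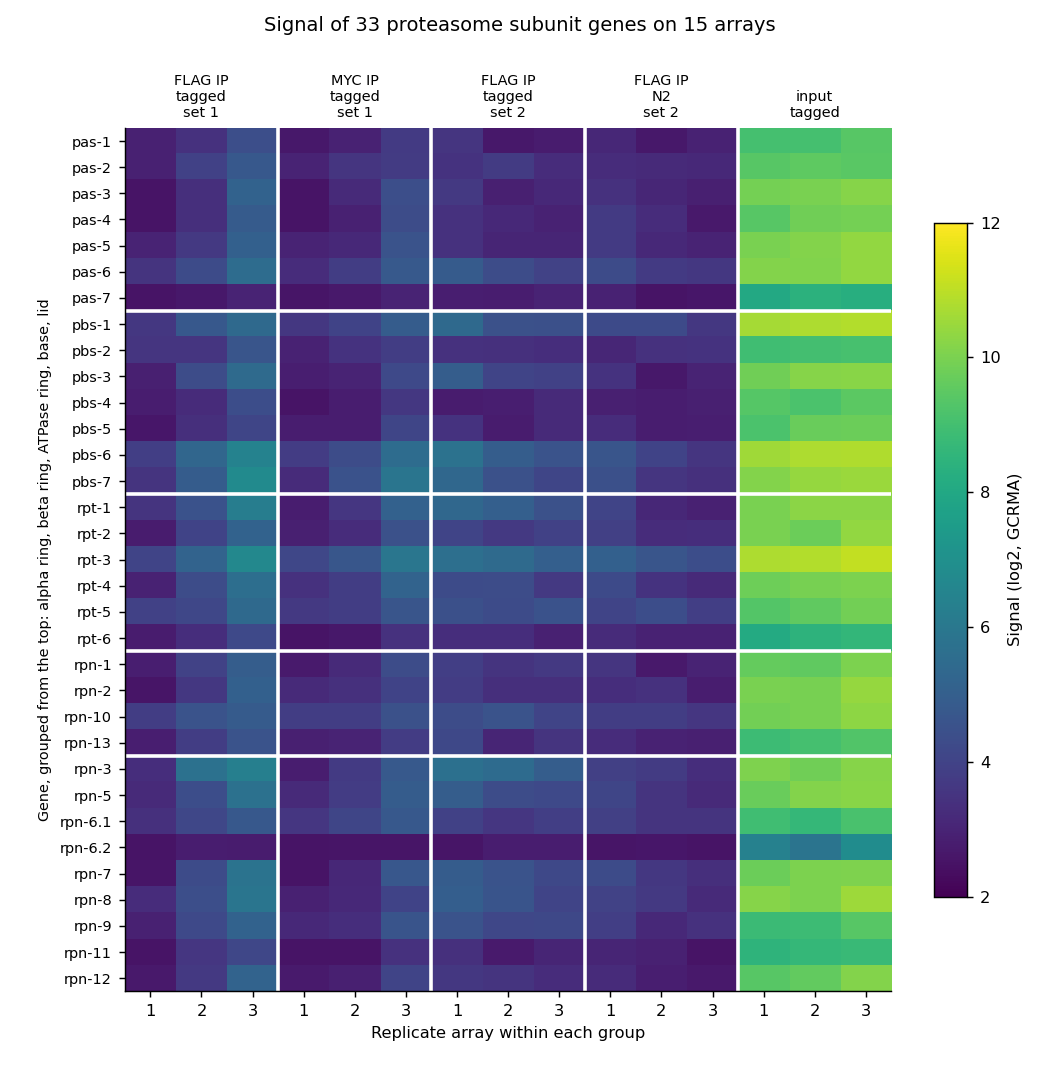
Signal (log2, GCRMA) of the 33 proteasome subunit genes, 1 row per gene and 1 column per array, with the groups separated by white lines. All 33 genes are bright in the 3 inputs, and their group means stay at 5.38 or below in the IPs.

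In set 1 most members were high and low on the same arrays of a group, and in set 2 fewer were. Their median on the FLAG IP arrays of set 1 was 2.90, 4.0 and 5.13 for replicates 1, 2 and 3, against 2.87, 3.25 and 4.42 on the MYC IP arrays. In set 2 it was 4.07, 3.66 and 3.66 on the tagged IP arrays, against 3.70, 3.28 and 3.15 on the N2 IP arrays. The ranges overlapped in both sets.

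Ribosomal protein genes, abundant transcripts taken as a measure of background RNA, moved with them. Their median was 5.73, 7.98 and 9.85 on the FLAG IP arrays, against 6.50, 7.71 and 9.39 on the MYC IP arrays. In set 2 it was 7.80, 7.41 and 6.72 on the tagged IP arrays, against 7.96, 7.11 and 6.44 on the N2 IP arrays. Of the 33 members, 32 peaked in the FLAG group of set 1 on the array where the ribosomal genes peaked, and 32 in the MYC group, 25 in the tagged group of set 2 and 27 in the N2 group did so. On the array where the ribosomal genes were lowest, 33 members were lowest in the FLAG group of set 1 and 30 in the MYC group, but 19 in the tagged group of set 2 and 22 in the N2 group. The part of this shared movement in the differences between groups was not tested. On FLAG replicate 1 and MYC replicate 1, 8 members each lay within 0.1 of the lowest value of the array, where differences have no measured size.

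**Figure D2:**
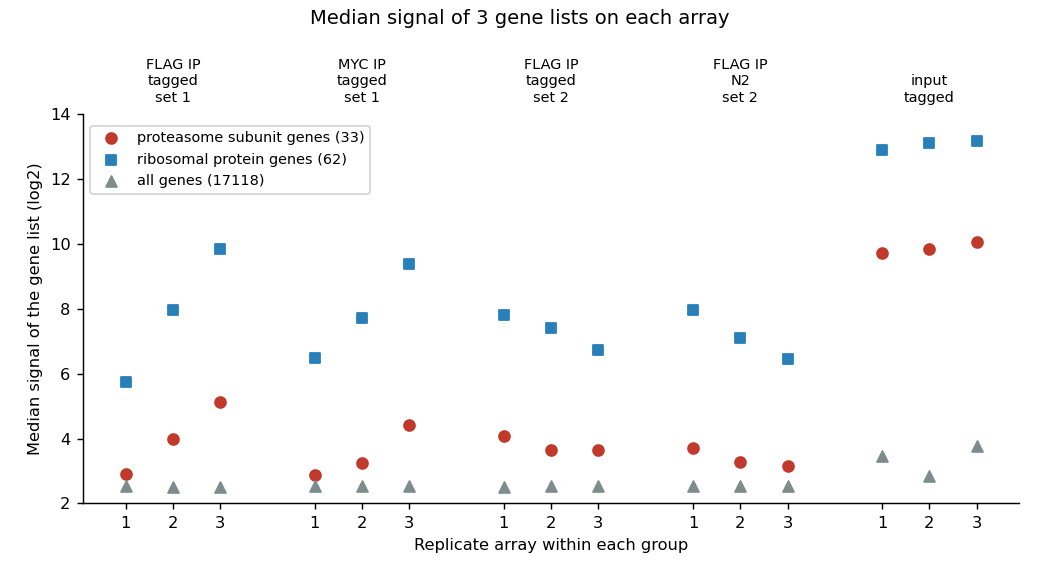
Median signal (log2) of the 33 proteasome subunit genes, 62 ribosomal protein genes and all 17118 genes on each of the 15 arrays. In set 1 the proteasome and ribosomal medians are lowest on replicate 1 and highest on replicate 3 in both IPs, while the median of all genes stays near the lowest values.

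Strategy 1 asked which transcripts came down with the anti-FLAG antibody beyond an anti-MYC antibody on the same strain. None of the 33 proteasome genes passed the limma test (0 higher and 0 lower at adjusted p under 0.05, lowest adjusted p = 0.322), and 0 had an unadjusted p under 0.05. Over all probe sets 2.41% were higher and 0.0577% lower, and 8.52% were higher at unadjusted p under 0.05. Fitted changes of the members ran from -0.06 to 1.36 with a median of 0.47, against a median of -0.03 over all genes and of -0.02 over the 62 ribosomal protein genes. Of the members, 31 had a positive fitted change in these values as deposited. The median rested on single arrays, at -0.01 without FLAG replicate 3, 0.92 without FLAG replicate 1, 0.16 without MYC replicate 1 and 0.84 without MYC replicate 3. No member had all 3 FLAG arrays above all 3 MYC arrays, against 6.14% of all probe sets.

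Strategy 2 asked the same with 1 antibody on extracts with and without the tagged protein. Again 0 members were higher and 0 lower in limma at adjusted p under 0.05, against 5.47% and 0.173% of all probe sets. The lowest adjusted p was 0.144, for rpn-3, which was also the only member with an unadjusted p under 0.05, against 11.1% of all probe sets that were higher at that level. Fitted changes ran from -0.12 to 1.73 with a median of 0.45, against -0.03 over all genes and 0.10 over ribosomal protein genes. In 9 of the 33 genes all 3 tagged arrays lay above all 3 N2 arrays, against 14.9% of all probe sets. These were pbs-1, pbs-3, rpt-1, rpn-3, rpn-5, rpn-8, rpn-9, rpn-10 and rpn-12. Since no member was called in either strategy, 0 were called in both, against 2.33% of all probe sets.

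Most probe sets of the array lie near the lowest values in the IPs, so the share among well expressed genes is also given, a comparison chosen after seeing the data. Of the 2015 genes at log2 8 or more on all 3 inputs, 11.0% were higher in strategy 1 and 20.4% in strategy 2. Of the 32 proteasome genes among them 0 and 0 were. The median change of these 2015 genes was 0.53 in strategy 1 and 0.67 in strategy 2, against which the 32 members had 0.47 and 0.48. In strategy 1 92.9% of the 2015 genes had a change above 0, and in strategy 2 87.5%, so a positive sign is the common one at this level of expression. All 3 FLAG arrays lay above all 3 MYC arrays in 17.6% of the 2015 genes and in 0 of the 32 members. All 3 tagged arrays lay above all 3 N2 arrays in 52.2% of the 2015 genes and in 9 of the 32 members.

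Missing the threshold does not show that a transcript was not recovered. The standard errors of the members ran from 0.0819 to 0.884 with a median of 0.553. They pool the spread of all IP groups, so errors and limits in strategy 2 also carry the spread of set 1. For rpn-3 in strategy 2 the standard error was 0.754, and 0.26 with only the 6 arrays of set 2 in the fit. The highest upper 95% limit of any member's change was 3.07 in strategy 1 and 3.44 in strategy 2, both for rpn-3. The changes of oma-2 (6.65 and 8.17), of the yolk receptor gene rme-2 (5.43 and 6.75) and of gna-2 (5.35 and 6.63), all known targets, lay above these limits.

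**Figure D3:**
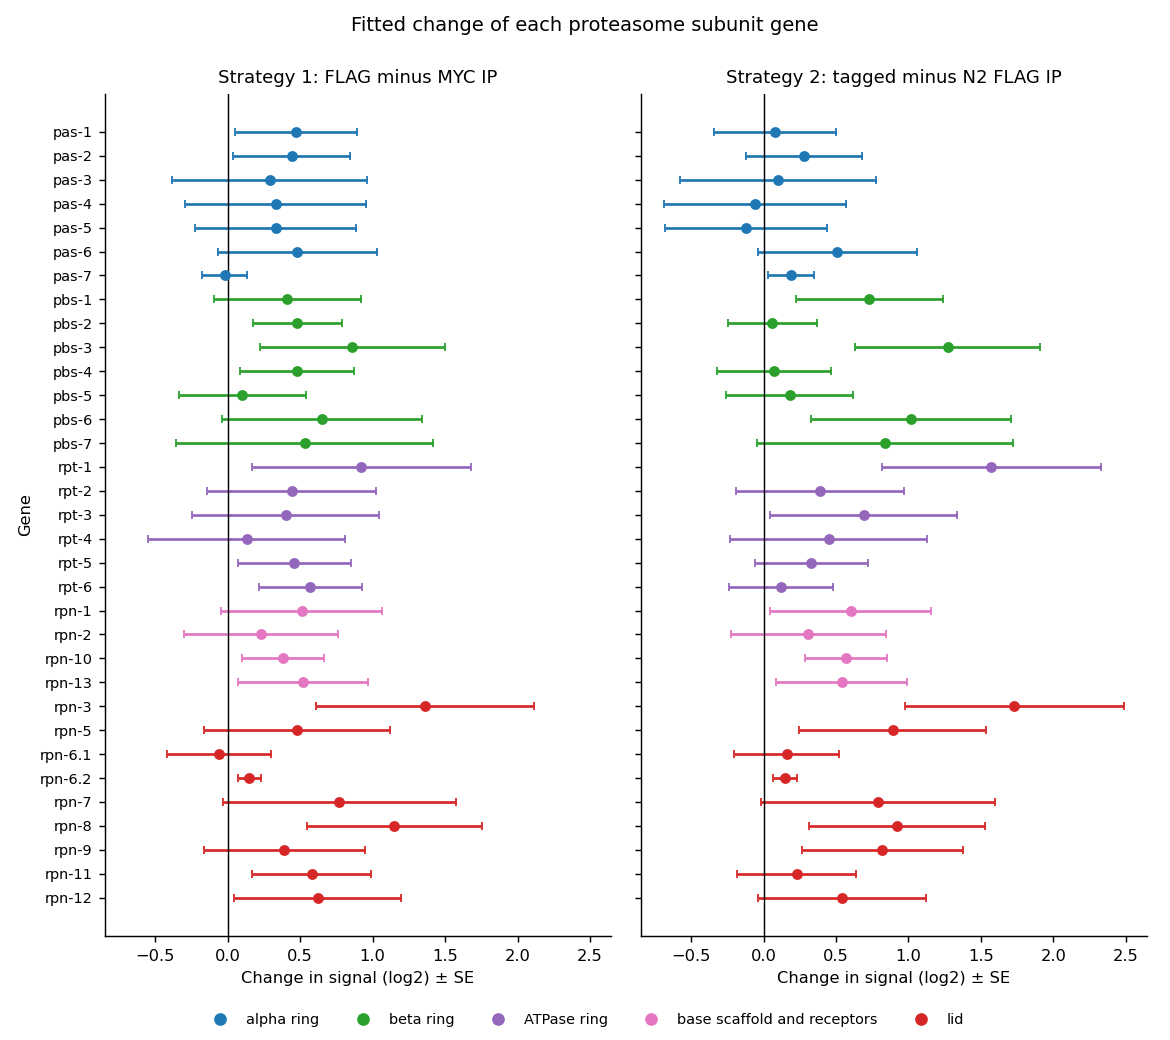
Fitted change in signal (log2, points) of each proteasome subunit gene with its standard error (bars), for strategy 1 on the left and strategy 2 on the right, coloured by subcomplex. The largest changes are those of rpn-3, at 1.36 and 1.73, and 0 of the 33 genes passed the test in either panel.

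Among the alpha ring genes, pas-1 to pas-7, whose products gate the core, changes in strategy 1 had a median of 0.33 and in strategy 2 of 0.10. The gene pas-7 (193348_s_at) had 2.53, 2.66 and 2.98 in the FLAG IPs, against 2.56, 2.67 and 2.98 in the MYC IPs. The tagged IPs of set 2 read 2.84, 2.81 and 3.00, against 2.94, 2.51 and 2.62 in the N2 IPs. These groups overlapped in both sets, and the changes were -0.02 ± 0.156 (SE, adjusted p = 0.957) and 0.19 ± 0.156 (adjusted p = 0.398), with input at 8.24 ± 0.204 (SD, n = 3). The alpha gene pas-5 read 2.98, 3.65 and 5.06 in the FLAG IPs and 2.99, 3.14 and 4.56 in the MYC IPs, and 3.41, 3.05 and 3.04 in the tagged IPs of set 2 and 3.70, 3.17 and 2.99 in the N2 IPs. Its fitted changes, 0.33 and -0.12, and those of pas-4, 0.33 and -0.06, were smaller than their standard errors (0.558 and 0.626), with overlapping groups.

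The beta ring genes had medians of 0.48 in strategy 1 and 0.73 in strategy 2. Their proteolytic members are pbs-1, pbs-2 and pbs-5, which encode the caspase-like, trypsin-like and chymotrypsin-like subunits. The signal of pbs-1 (176617_s_at) was 3.61, 4.76 and 5.41 in the FLAG IPs, against 3.62, 4.03 and 4.90 in the MYC IPs. It was 5.42, 4.47 and 4.45 in the tagged IPs of set 2, against 4.26, 4.26 and 3.64 in the N2 IPs. The groups overlapped in set 1 but not in set 2, with changes of 0.41 ± 0.507 (adjusted p = 0.627) and 0.73 ± 0.507 (adjusted p = 0.315).

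For pbs-5 (193039_s_at) the FLAG IPs gave 2.60, 3.33 and 4.08 and the MYC IPs 2.82, 2.81 and 4.08. The tagged IPs of set 2 gave 3.48, 2.77 and 3.18 and the N2 IPs 3.26, 2.79 and 2.85. Both pairs of groups overlapped, and the changes were 0.10 ± 0.437 and 0.18 ± 0.437 (adjusted p = 0.895 and 0.802). For pbs-2 (193057_s_at) the fitted changes were 0.48 ± 0.306 (adjusted p = 0.34) and 0.06 ± 0.306 (adjusted p = 0.903), again with overlapping groups. The largest changes of the ring were those of pbs-3 (190159_s_at), a beta subunit gene without a proteolytic site. It read 2.88, 4.32 and 5.44 in the FLAG IPs, against 2.84, 2.99 and 4.22 in the MYC IPs, a difference of 0.86 ± 0.64 (adjusted p = 0.402). It read 4.94, 4.06 and 3.92 in the tagged IPs of set 2, against 3.48, 2.63 and 3.00 in the N2 IPs, a difference of 1.27 ± 0.64 (adjusted p = 0.175). A second pbs-3 probe set, 173141_s_at, gave 0.56 and 0.68, and its groups overlapped in set 2 as well.

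The ATPase genes rpt-1 to rpt-6 had medians of 0.45 and 0.42. The largest changes were those of rpt-1 (173893_at), which had 3.51, 4.52 and 6.23 in the FLAG IPs, against 2.81, 3.59 and 5.09 in the MYC IPs. It had 5.33, 5.02 and 4.49 in the tagged IPs of set 2, against 4.07, 3.13 and 2.93 in the N2 IPs. The set 1 groups overlapped and the set 2 groups did not, for changes of 0.92 ± 0.755 (1.89-fold, adjusted p = 0.45) and 1.57 ± 0.755 (2.97-fold, adjusted p = 0.16). The second rpt-1 probe set, 173894_s_at, gave 0.48 and 0.60, with overlapping groups. The other 5 ATPase genes had changes of at most 0.57 in strategy 1 and 0.69 in strategy 2.

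Of the base subunits without ATPase activity, rpn-1 and rpn-2 encode scaffolds and rpn-10 and rpn-13 encode ubiquitin receptors. Their medians were 0.44 and 0.55. In C. elegans rpn-10 is also known for a role in the sex determination of the hermaphrodite germline. It (173653_at) had 3.81, 4.56 and 4.88 in the FLAG IPs, against 3.82, 3.82 and 4.48 in the MYC IPs, which overlap. In set 2 it had 4.31, 4.55 and 4.04 in the tagged IPs, against 3.81, 3.81 and 3.58 in the N2 IPs, which do not. Neither change passed the test (0.38 ± 0.282, adjusted p = 0.408, and 0.57 ± 0.282, adjusted p = 0.169), and the second probe set, 188262_s_at, read 0.21 and 0.07.

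The lid genes had the highest medians of the 5 subcomplexes, 0.58 in strategy 1 and 0.79 in strategy 2, or 0.53 and 0.67 without rpn-3, which in strategy 2 is below the 0.73 of the beta ring. This order is a description of genes that share arrays, and no test of it was made. The scaffold subunit gene rpn-3 (187979_at, WBGene00004460) led all members. Its signal was 3.32, 5.72 and 6.33 in the FLAG IPs, against 2.81, 3.68 and 4.80 in the MYC IPs. It was 5.68, 5.48 and 4.94 in the tagged IPs of set 2, against 3.88, 3.75 and 3.29 in the N2 IPs. FLAG replicate 1 fell among the MYC arrays, whereas the lowest tagged array of set 2 lay 1.06 above the highest N2 array. The changes were 1.36 ± 0.754 (2.57-fold, 95% interval -0.35 to 3.07, adjusted p = 0.322) and 1.73 ± 0.754 (3.31-fold, 95% interval 0.02 to 3.44, adjusted p = 0.144). Input stood at 10.02 ± 0.163 (SD, n = 3), from which the FLAG IP of set 1 differed by -4.90 and the tagged IP of set 2 by -4.66. Without FLAG replicate 1 of set 1, rpn-3 passed in strategy 1 (2.26, adjusted p = 0.0326), 1 member of 33 against 9.27% of all probe sets. With only the 6 arrays of set 2 in the fit, 5 members were higher in strategy 2 (pbs-3, rpt-1, rpn-3, rpn-9 and rpn-10), against 11.5% of all probe sets. Among the 5 members that reached log2 5 on at least 3 IP arrays, rpn-3 alone was called in strategy 2 (adjusted p = 0.038), against 70.6% of the probe sets that reached it. However, rpn-3 reached that level on FLAG and tagged arrays alone, with at most 4.80 in the MYC IPs and 3.88 in the N2 IPs. The filter thus favours a positive change, and this call is no separate evidence. With fitted array weights 29 members were higher in strategy 1, against 27.6% of all probe sets, and 7 in strategy 2, against 14.2%. These weights did not converge, and 12432 probe sets were called lower with them in strategy 1. The share among well expressed genes was not computed for this fit. In rank, 5.06% of all genes had a change at least as large as that of rpn-3 in strategy 1 and 5.60% in strategy 2. Most of all genes lie near the lowest values in the IPs. Of the 2015 genes at log2 8 or more on all 3 inputs, 666 rose at least 2-fold in strategy 1 and 811 in strategy 2.

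The next lid gene was rpn-8 (187980_at), which encodes the partner of the deubiquitinating subunit. It had 3.25, 4.41 and 5.88 in the FLAG IPs, against 2.92, 3.17 and 4.02 in the MYC IPs, a change of 1.15 ± 0.606 (adjusted p = 0.322). It had 4.97, 4.59 and 4.04 in the tagged IPs of set 2, against 3.96, 3.67 and 3.21 in the N2 IPs, a change of 0.92 ± 0.606 (adjusted p = 0.288). Only the set 2 groups were separate, by 0.08. The deubiquitinase gene itself, rpn-11, had changes of 0.58 and 0.23. Those of rpn-12, which encodes another lid subunit, were 0.62 ± 0.578 and 0.54 ± 0.578 (adjusted p = 0.506 and 0.526), with the lowest tagged array of set 2 at 3.25 and the highest N2 array at 3.22.

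The paralogs rpn-6.1 and rpn-6.2 stood at the low end. The lid gene rpn-6.1 (184582_s_at) read 3.40, 4.13 and 4.74 in the FLAG IPs, against 3.60, 4.1 and 4.76 in the MYC IPs. It read 3.93, 3.60 and 3.84 in the tagged IPs of set 2, against 3.90, 3.49 and 3.51 in the N2 IPs. Its mean change over the strategies, 0.05, was the lowest of all members, with overlapping groups and changes of -0.06 ± 0.361 (adjusted p = 0.923) and 0.16 ± 0.361 (adjusted p = 0.786). For rpn-6.2 (187071_at) every IP array lay between 2.52 and 2.80, near the lowest values, and the changes were 0.15 and 0.15. In input it was at 6.39, 5.86 and 6.85.

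**Figure D4:**
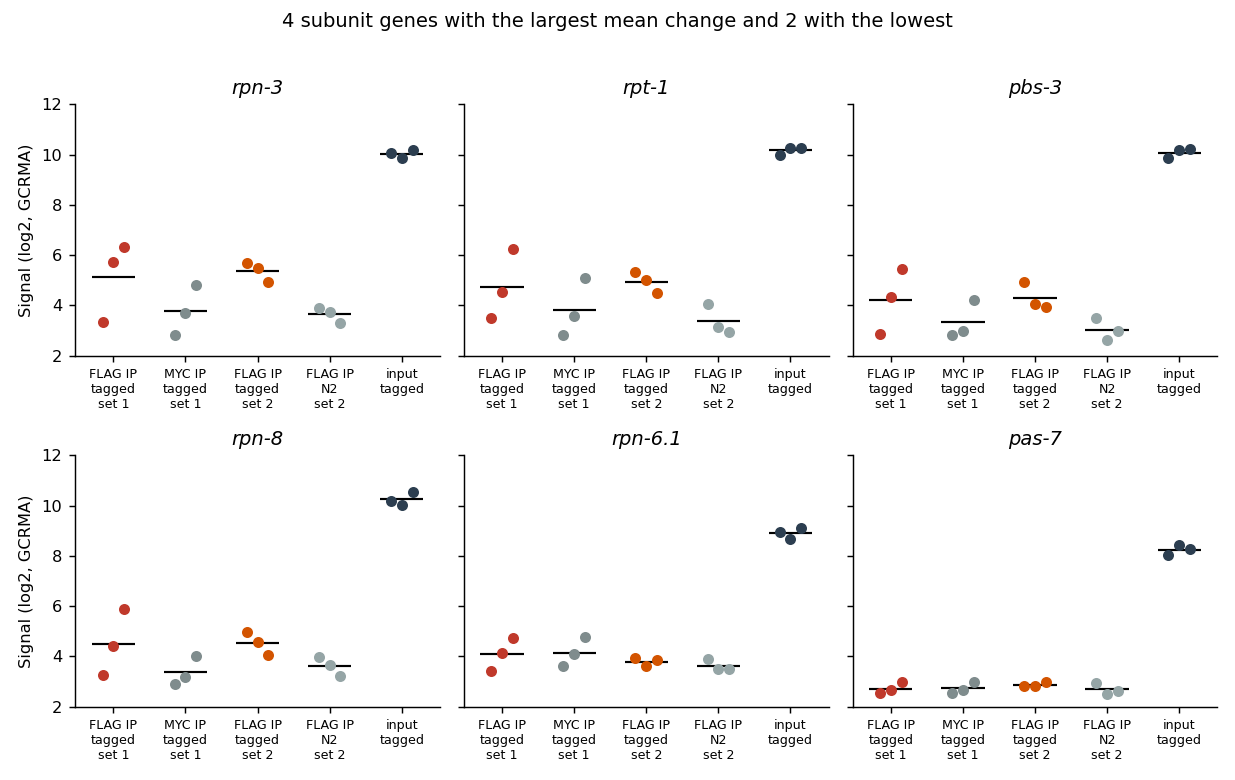
Signal (log2) on every array for the 4 proteasome genes with the largest mean change over the strategies and for rpn-6.1 and pas-7, which have the lowest. Points are arrays and horizontal lines group means; in set 2 the 3 tagged arrays of rpn-3 (4.94 to 5.68) sit above the 3 N2 arrays (3.29 to 3.88), while in set 1 the groups overlap.

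Core and regulatory particle genes were then set side by side. In strategy 1 the core genes had a median change of 0.46 and the regulatory genes of 0.48. In strategy 2 the median was 0.18 for the core and 0.54 for the regulatory genes, a difference of -0.36. That difference was -0.08 after quantile normalization, -0.13 after cyclic loess and -0.64 over the only 5 members at log2 5 or more on 3 IP arrays. This filter favours a positive change, so the value with it is no separate evidence. In set 2, 2 of 14 core genes and 7 of 19 regulatory genes had no overlap between tagged and N2 arrays. Over all probe sets 14.9% had all 3 tagged arrays above all 3 N2 arrays. Of the 2015 genes at log2 8 or more on all 3 inputs, 52.2% did. Within the core the gap lay between the rings in strategy 2, with 0.10 for the alpha and 0.73 for the beta genes. These are medians over genes on the same 6 arrays and carry no test.

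The sign of these medians depended on the scaling of the arrays. With the deposited values centred on ribosomal protein genes the member medians were 0.49 and 0.31 in strategies 1 and 2, whereas quantile normalization gave -0.37 and -0.44, and cyclic loess -0.22 and -0.45. After quantile normalization 4 members in strategy 1 (pbs-1, pbs-6, rpt-3 and rpn-6.1) and 6 in strategy 2 were called lower, against 1.55% and 2.57% of all probe sets. After cyclic loess 3 and 7 were called lower, against 1.62% and 2.65%. Most probe sets lie near the lowest values in the IPs, and the share called lower among well expressed genes was not computed. These counts therefore do not show that proteasome genes differ from other well expressed genes. Under both of these scalings rpt-3, pbs-1 and rpn-6.1 were lower in each strategy, and rpn-3 had changes of -0.08 to 0.17. None of these 3 scalings gave a member called higher in limma.

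**Figure D5:**
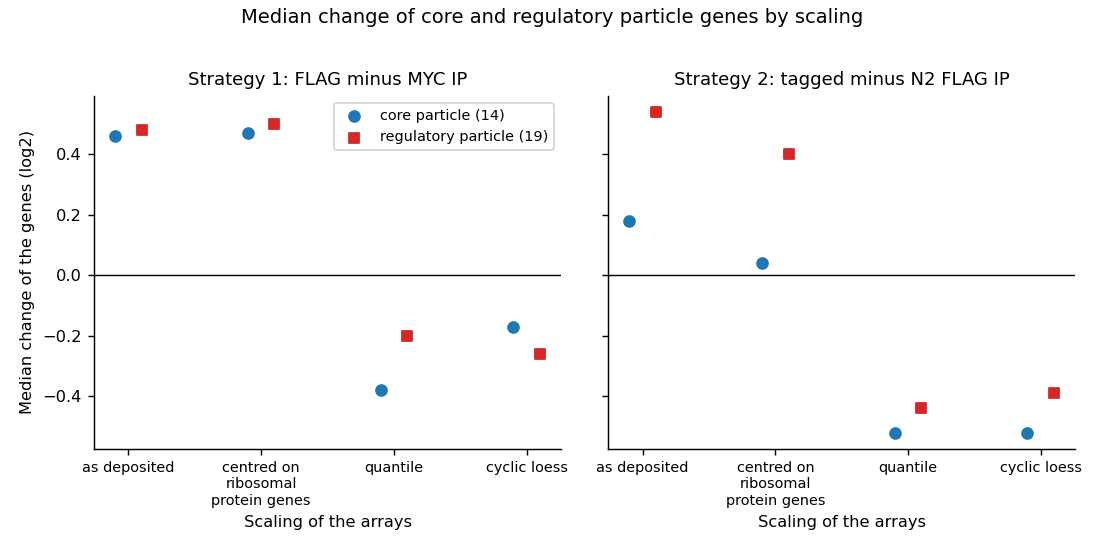
Median change (log2) of the 14 core (circles) and 19 regulatory particle genes (squares) with the values as deposited and under 3 other scalings, for strategy 1 on the left and strategy 2 on the right. The medians are above 0 as deposited and after centring on ribosomal protein genes and below 0 after quantile normalization and cyclic loess.

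Genes that work with the proteasome but are not subunits by symbol were measured as a further list, of which 20 had a probe set assigned to them alone and psmd-9, ufd-3 and aip-1 had none. They encode the ubiquitin-activating enzyme, ubiquitin, shuttle factors, deubiquitinating enzymes, the segregase CDC-48 with its cofactors, and SKN-1, a transcription factor known to raise proteasome gene expression. Of the 20, 1 was higher in each strategy and 0 lower, with medians of 0.41 and 0.49, against 2.41% of all probe sets higher in strategy 1 and 5.47% in strategy 2. It was ufd-1, which encodes a cofactor by which CDC-48 extracts ubiquitin-tagged proteins, read from a shared-sequence probe set. Its signal was 6.55, 8.46 and 8.74 in the FLAG IPs, against 3.07, 3.68 and 4.84 in the MYC IPs. It was 9.46, 9.02 and 8.46 in the tagged IPs of set 2, against 4.25, 3.74 and 3.75 in the N2 IPs, and no groups overlapped. The gene rose 16.6-fold in strategy 1 (4.05 ± 0.621, adjusted p = 0.0116) and 33.5-fold in strategy 2 (5.07 ± 0.621, adjusted p = 0.00207), with input at 10.54. The size depended on the scaling. Quantile normalization gave 2.76 and 2.75 on the log2 scale and cyclic loess 1.64 and 1.73, with ufd-1 called in both strategies under each. Its strategy 1 call ended with only the 6 arrays of set 1 in the fit (adjusted p = 0.277) and without MYC replicate 1, MYC replicate 2, FLAG replicate 2 or FLAG replicate 3 (adjusted p = 0.0549, 0.0623, 0.0655 and 0.0563).

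The CDC-48 genes themselves did not pass in the fit of the 12 IP arrays. The signal of cdc-48.1 was 4.66, 7.29 and 7.53 in the FLAG IPs, against 2.54, 3.97 and 5.23 in the MYC IPs, a change of 2.58 ± 0.878 (adjusted p = 0.249). It was 7.66, 6.90 and 6.90 in the tagged IPs of set 2, against 4.44, 3.09 and 3.19 in the N2 IPs, a change of 3.58 ± 0.878 (adjusted p = 0.0506). For cdc-48.2 the changes were 1.76 and 2.5 (adjusted p = 0.322 and 0.0749). Both CDC-48 genes were called higher in strategy 2 under several other settings. With all 15 arrays 3 factors were called (5.46% of all probe sets), with the 6 arrays of set 2 alone 6 (11.5%), with the log2 5 filter 6 of 8 (70.6%) and with array weights 10 (14.2%), both CDC-48 genes among them each time. In strategy 1 they were called with the filter, as 2 of 3 factors (57.3% of the probe sets that reached it), without FLAG replicate 1, as 2 of 4 (9.27% of all probe sets), and with array weights, among 16 (27.6%). With the 6 arrays of set 1 alone 0 factors were called. Neither CDC-48 gene reached log2 5 on 3 control arrays, so both passed the filter through FLAG and tagged arrays. Their calls with the filter are therefore no separate evidence. The array weights did not converge, and 12432 probe sets were called lower with them in strategy 1.

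The ubiquitin-activating enzyme gene uba-1 had fitted changes of 1.12 and 1.73 (adjusted p = 0.357 and 0.144), the ubiquitin chain elongation factor gene ufd-2 of 1.18 and 1.84 (adjusted p = 0.322 and 0.0866) and the shuttle factor gene rad-23 of 0.92 and 1.49 (adjusted p = 0.354 and 0.144). The polyubiquitin gene ubq-1 had 0.72 and 1.1 (adjusted p = 0.432 and 0.182). In all 4 the set 1 groups overlapped and the set 2 groups did not. For ubq-1, however, the lowest tagged array and the highest N2 array both read 7.49 after rounding. All tagged arrays of set 2 lay above all N2 arrays in 10 of the 20 factors. The share was 14.9% over all probe sets and 52.2% over the 2015 genes at log2 8 or more on all 3 inputs. The fitted changes of ubq-2, which encodes ubiquitin fused to a ribosomal protein, were 0.01 and 0.02, and those of skn-1 0.05 and 0.18.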

How the data were processed

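Worm RNA from 15 samples was amplified, labelled and hybridised. Per the labels' protocols, every IP received 10 µg of RNA from mouse brain before purification, and 5 µg of RNA was amplified for an input. The deposited values are log2 signals, which the authors made with GCRMA, per the submitters' processing notes; its version is not stated. The arrays kept different lowest values and quartiles. Nothing further was done to the values before the fit.

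The array table held 22625 probe sets. After removal of 77 controls of the array, 22548 entered the test, and 20766 of these had exactly 1 gene symbol in the annotation of the platform. Group means of the 12 IP arrays were estimated by lmFit and eBayes of limma 3.58.1 (R 4.3.3, two-sided), with Benjamini-Hochberg adjustment over all 22548 probe sets. Errors of changes are standard errors of this fit, and intervals use its 8 residual and 0.849 prior degrees of freedom. The fit pools the spread of all IP groups for each probe set, so its errors are equal in both strategies. The members, gene lists and alternatives were chosen with earlier results of these data known. The rule for named genes took every called member, the 4 members highest and the 4 members lowest in mean change over the strategies, pbs-1, pbs-2, pbs-5, rpn-6.1, rpn-6.2, rpn-10 and rpn-12. A few other members are given as examples of a range or as the members of a count. Alternatives covered the arrays in the fit, scaling, filtering, array weights, choice of probe set, a replicate block and each replicate left out.

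Both contrasts were tested on simulated data with known changes. With 50 altered probe sets at each fold, drawn from the 8159 in the members' range of IP signal, 50 and 70% of 2-fold and 4-fold changes were recovered for strategy 1 and 44 and 92% for strategy 2. There were 14 false calls among 22348 unchanged probe sets in each. These simulations held no background shared across the genes of an array. The altered probe sets were matched to the members in signal and not in spread, so these shares need not hold for the members.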

Additional observations from a re-analysis of the deposited data

How the results depend on the processing

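No member was called in either direction with the replicate number as a block, with all 15 arrays, with probe sets of 1 gene averaged, after centring on ribosomal protein genes or without shared-sequence probe sets. Called higher in strategy 2 were 5 members with only its 6 arrays in the fit (11.5% of all probe sets) and 1, rpn-3, among the 5 members that reached log2 5 on 3 IP arrays. The gene rpn-3 reached that level only on FLAG and tagged arrays. With fitted array weights 29 were higher in strategy 1, 7 in strategy 2 and 7 in both, but the weights did not converge and 12432 probe sets were called lower in strategy 1. The replicate number within each set as a block, added after seeing the data, gave 1 (rpt-1) in strategy 1 and in both (3.17% of all probe sets in strategy 1) and 11 in strategy 2 (11.6%); same-numbered IP arrays deviated together for replicates 1 and 3 (r = 0.803 and 0.873 in set 1, 0.511 and 0.520 in set 2) but not for replicate 2 (-0.070 and 0.037), and the labels state no pairing. Quantile normalization called 4 members lower in strategy 1 and 6 in strategy 2, with medians of -0.37 and -0.44. Cyclic loess called 3 and 7 lower, with medians of -0.22 and -0.45. The share called lower among well expressed genes was not computed for either scaling. Under these scalings pbs-1 changed by -1.02 and -1.17 (quantile) and -0.90 and -1.0 (loess), rpn-6.1 in strategy 2 by -1.09 and -1.06, and rpn-10 in strategy 2 by -0.86 after loess.

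The core minus regulatory median, -0.03 in strategy 1, was -0.33 over the 5 members at log2 5 on 3 IP arrays and 0.09 after cyclic loess. In strategy 2, where it was -0.36, it was -0.64 with that filter, -0.08 after quantile normalization and -0.13 after cyclic loess. It was -0.56 over the 13 members left without shared-sequence probe sets. The member median in strategy 2 was 1.02 with the filter, over 5 members, against 2.44 over all genes that passed it. Genes that passed had median levels of 6.23 in the tagged and 3.58 in the N2 IPs. The filter thus favours a positive change, and the medians and differences with it are no separate evidence. Leaving out 1 array at a time, the count of members higher lay between 0 and 1 in strategy 1, and remained 0 for strategy 2 and for both together. The member median ran from -0.01 (without FLAG replicate 3) to 0.92 (without FLAG replicate 1) in strategy 1, with 0.16 without MYC replicate 1 and 0.84 without MYC replicate 3, and from 0.30 to 0.61 in strategy 2. The core minus regulatory median ran from -0.16 to 0.02 and from -0.47 to -0.25. Of 438 values of the 14 named members under an alternative, 359 kept sign and call. The cause of these shifts was not tested. Signals near the lowest value of an array and the 3 arrays per group limit what can be seen.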
